A study of Mus musculus with 12 samples.

Results

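The clustered histone genes encode the bulk of the histones that are deposited on DNA as it is copied. They were taken here as every row of the deposited count tables whose symbol begins with Hist1h, Hist2h, Hist3h or Hist4h, which gave 71 members of 46078 genes. RNA came from brains of mouse embryos at E15.5, with 3 libraries in each of 4 groups, namely KO male, WT male, KO female and WT female. KO animals lack the entire coding sequence of Nsd2, a histone H3 lysine 36 methyltransferase, after CRISPR/Cas9 editing, WT animals carry the intact gene, and both were kept on the C57BL/6 background. Ribosomal RNA was removed rather than poly(A) RNA selected, so transcripts without a poly(A) tail could be read.

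In animals, most messenger RNAs of these genes have no poly(A) tail and end after a short hairpin called the stem loop, which the protein SLBP binds. Their transcription, driven by NPAT at histone locus bodies, and the life of their messenger RNAs are tied to S phase, so dividing cells hold far more of these RNAs than neurons that have left the cell cycle. Histones H2A, H2B, H3 and H4 build the nucleosome core, and linker histone H1 sits where DNA enters and leaves it.

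By protein, the members comprised 6 H1, 20 H2A, 20 H2B, 12 H3 and 13 H4 genes. By cluster, 56 were Hist1, 11 Hist2, 3 Hist3 and 1 Hist4 genes. On GRCm38, the build of the deposited tables, Hist1 members of the GENCODE M21 annotation lay on chromosome 13 from 21715763 to 23934851, apart from the pseudogene Hist1h2al at 51202727 to 51203065. The Hist2 members lay on chromosome 3 from 96219865 to 96279001, the Hist3 members on chromosome 11 from 58948920 to 58956830, and Hist4h4 on chromosome 6 from 136801553 to 136804415. Of the 71 rows, 65 were protein coding, 3 were pseudogenes (Hist1h2aj, Hist1h2al and Hist3h2bb-ps), 1 was a lincRNA and 2, Hist1h2bm and Hist1h2bh, were not matched by identifier. Hist2h2bb stands in the tables under a pair of identifiers, a protein coding one (ENSMUSG00000105827) and the lincRNA (ENSMUSG00000050936).

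The stem loop is shown first because it sets these RNAs apart from other messenger RNAs. The search took a stem of 6 fully paired bases that starts with GG, around a loop of 4 bases. The loop had to be TT, then T or C, then A, C or T, so other loops and imperfect stems were not counted. At any place in their GENCODE M21 transcripts, 42 of the 69 matched members held such a stem loop, against 0.135% of 55381 other genes. The 6 forms found follow as DNA letters, with the paired bases in capitals.
Stem loop of 24 H1, H2A, H2B and H3 members: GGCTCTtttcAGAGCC
Stem loop of 7 H4 members: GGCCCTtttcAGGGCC
Stem loop of 6 H1, H2B and H3 members: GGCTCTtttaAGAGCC
Stem loop of Hist2h4 and Hist1h4i: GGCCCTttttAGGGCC
Stem loop of Hist1h4j and Hist1h4b: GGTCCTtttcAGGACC
Stem loop of Hist2h2ac: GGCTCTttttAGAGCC
Of the 27 members without a match, 15 had models that stop within 20 bases of the stop codon, where the sequence that would hold a stem loop is not annotated. The models of 4 H2B members run much further past the stop codon and hold no such stem loop, namely Hist2h2be (2192 bases), Hist1h2br (1803 bases), Hist1h2bq (1608 bases) and Hist1h2bc (742 bases).

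Promoters are shown for the members that the results below turn on. RefSeq windows of 300 bases around the start, on GRCm38.p6, were matched for 60 members. A TATA box (TATAAA) stood in 58.3% of these windows, against 13.6% of all 32851 windows in the table. A CCAAT box (CCAAT) stood in 85% of them against 37.4% of all, and the octamer (ATTTGCAT, the site of POU factors such as OCT1) in 20% against 1.7%. Both strands were searched for the exact letters, matches of different motifs overlapped in 0 of the 60 windows, and a match is a description of the sequence only. CCAAT was found in every H1, H2A, H2B and H3 window and in 25% of 12 H4 windows. The octamer was found in 38.9% of 18 H2A and 35.7% of 14 H2B windows, and in 0% of H1, H3 and H4 windows. Windows of divergent H2A and H2B pairs can overlap, as those of Hist1h2ae and Hist1h2bg do, so the same site can be counted in both families. Below, capitals mark these motifs on either strand.
Hist1h2ae, chr13:23571171-23571470, minus strand, shared with the divergent Hist1h2bg: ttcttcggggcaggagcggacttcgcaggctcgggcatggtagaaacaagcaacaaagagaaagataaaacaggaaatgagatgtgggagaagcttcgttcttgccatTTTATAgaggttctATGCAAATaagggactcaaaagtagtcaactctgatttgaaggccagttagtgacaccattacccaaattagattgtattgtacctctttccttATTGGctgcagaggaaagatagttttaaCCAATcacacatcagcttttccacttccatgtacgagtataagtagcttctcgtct
Hist2h2ac, chr3:96220831-96221130, minus strand, shared with the divergent Hist2h2be: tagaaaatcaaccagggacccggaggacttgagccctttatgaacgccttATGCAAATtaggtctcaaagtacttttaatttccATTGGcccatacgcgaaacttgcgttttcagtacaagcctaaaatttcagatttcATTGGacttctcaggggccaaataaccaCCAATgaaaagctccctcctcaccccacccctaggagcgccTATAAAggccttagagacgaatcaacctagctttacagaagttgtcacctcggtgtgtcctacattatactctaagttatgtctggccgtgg
Hist1h4d, chr13:23581318-23581617, plus strand: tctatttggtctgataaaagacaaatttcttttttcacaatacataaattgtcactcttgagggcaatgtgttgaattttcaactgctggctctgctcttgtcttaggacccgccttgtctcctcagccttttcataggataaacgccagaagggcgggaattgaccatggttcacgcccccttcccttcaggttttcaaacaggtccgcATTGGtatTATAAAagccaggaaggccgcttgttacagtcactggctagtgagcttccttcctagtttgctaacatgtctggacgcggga
In all, 13 pairs of an H2A and an H2B member started on opposite strands within 400 bases of each other, among them Hist3h2a beside the H2B pseudogene Hist3h2bb-ps.

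Library totals ranged from 40398665 to 59304196 counts. A two-sided exact permutation test of KO against WT totals gave p = 0.4 for males and p = 0.6 for females, and 3 libraries against 3 cannot give less than 0.1. Whsc1, the name of Nsd2 in the tables, stood at 0.909 to 2.67 CPM in KO libraries and 351 to 407 CPM in WT libraries, where CPM are counts scaled by library total and TMM factor, which makes libraries of unequal depth comparable. Hoxa5, a gene of hindbrain and cord, exceeded 10 CPM in 6 libraries (KO male 2, KO female 2, KO female 3, WT male 2, WT male 3 and WT female 3) and was at most 0.873 CPM in the other 6. Neuron markers were high throughout, with sums over 6 genes of 5277 to 5890 CPM. Nothing in the labels says whether embryos came from separate litters, so p-values measure the spread between these libraries. In bulk tissue, fewer dividing cells and less histone RNA per cell cannot be told apart.

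All but 2 members were expressed, and the members together took 0.438% to 0.779% of all counts. The exceptions were testis histones. Hist1h1t, the testis linker histone, stood at 0.0713 to 0.423 CPM, and Hist1h2aa, a testis H2A gene, was listed at 0 in the 6 female libraries and reached at most 0.107 CPM in males. Per kilobase of coding sequence, the median level over the 12 libraries was 388 CPM for 13 H4 genes, 258 CPM for 12 H3 genes, 225 CPM for 6 H1 genes, 194 CPM for 16 H2B genes and 146 CPM for 18 H2A genes. Hist1h4h and Hist1h4d were the highest members on that scale, at 824 and 822 CPM per kilobase. The order of H2B and H2A depends on the length used, since per kilobase of the longest annotated transcript the medians were 231 CPM for H4, 187 CPM for H3, 126 CPM for H1, 105.5 CPM for H2A and 84.9 CPM for H2B.

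By CPM, genes of the large Hist1 cluster led the H1, H3 and H4 families, whereas genes of Hist3 led H2A and H2B. Hist1h1e, Hist1h1c and Hist1h1d, linker histones found in most tissues, averaged 228, 208 and 169 CPM over the 12 libraries. The H2A genes highest in CPM were Hist3h2a (148 CPM), Hist2h2aa2 (136 CPM) and Hist1h2ak (92.6 CPM). The H2B genes highest in CPM were Hist3h2ba (129 CPM), Hist1h2bg (114 CPM) and Hist1h2bn (104 CPM). Among H3 genes these were Hist1h3e (198 CPM), Hist1h3b (155 CPM) and Hist1h3f (155 CPM), and among H4 genes Hist1h4h (255 CPM), Hist1h4d (254 CPM) and Hist1h4n (160 CPM). Members resemble each other closely, and a median of 42.4% of the 75-base windows of a member's transcripts was also found in the transcripts of another gene. For 29 of the 69 matched members over 50% of windows were shared, and for 8 under 5%, and how reads were divided among such copies is not given.

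The histone members were high or low together from library to library, more by single libraries than by genotype. The summed level was 6848, 5665 and 6315 CPM in KO males 1 to 3, against 7406, 4564 and 7787 CPM in WT males 1 to 3. It was 6123, 6353 and 7735 CPM in KO females 1 to 3, against 4330, 6506 and 7463 CPM in WT females 1 to 3. In both sexes a WT library was the lowest, and in males WT libraries were also the 2 highest, so the KO libraries lay inside the WT range in males and overlapped it in females. Group means were 6276 ± 593 CPM in KO males and 6586 ± 1761 CPM in WT males, and 6737 ± 872 CPM in KO females and 6099.5 ± 1605 CPM in WT females (SD, n = 3 each), so the means differed by less than the SD of the WT libraries.

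**Figure D1:**
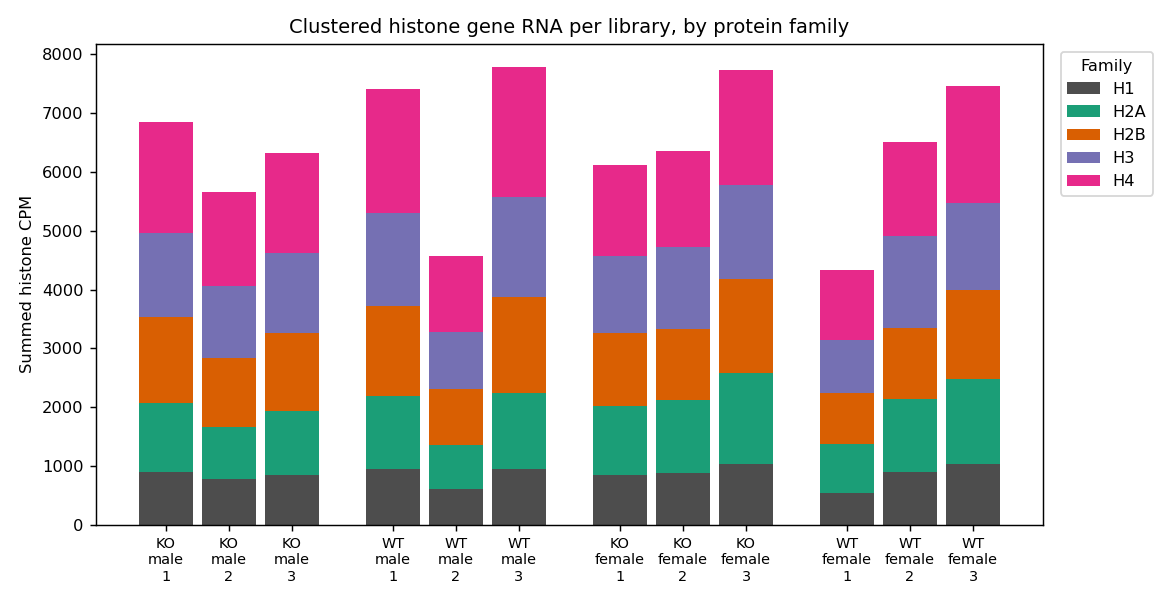
Summed CPM of the 71 clustered histone genes (vertical axis) in each of the 12 libraries, stacked by protein family in the order H1, H2A, H2B, H3 and H4 from the bottom. WT male 2 (4564 CPM) and WT female 1 (4330 CPM) stand lowest, with all 5 families reduced.

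The swing ran through nearly every member. WT male 2 was the lowest of the 6 males for 67 of the 69 members that averaged over 1 CPM, and WT female 1 the lowest of the 6 females for 62 of them. WT male 3 was the highest male library for 58 of the 69 members, and KO female 3 the highest female library for 41. Leaving aside Hist2h2aa1 and Hist2h3c1, described below, the ratio of WT male 2 to the mean of the other 5 males had a median of 0.669 over 67 members, from 0.612 for Hist1h2ba to 0.844 for Hist3h2bb-ps. The ratio of WT female 1 to the mean of the other 5 females had a median of 0.615, from 0.516 for Hist1h2bn to 0.929 for Hist1h4i. Over the 12 libraries H1 made up 12.2% to 13.9% of the histone total, H2A 15.8% to 19.8%, H2B 18.8% to 21.2%, H3 19.7% to 23.9% and H4 24.6% to 28.5%.

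A few members, 3 in all, stood apart by how little they moved. The coefficient of variation over the 12 libraries had a median of 21.4% over those 67 members and lay between 15% and 30% for 57 of them. It was 8.26% for Hist2h2be, 10.9% for Hist3h2ba and 14.2% for Hist3h2a. Hist2h2be, an H2B gene whose model carries a long 3′ end, stood at 14.1, 13.3 and 14.9 CPM in KO males, 12.4, 11.3 and 12.4 CPM in WT males, 12.8, 12.3 and 14.5 CPM in KO females and 12.1, 13.8 and 13.0 CPM in WT females. Its divergent neighbour Hist2h2ac starts 239 bases away and had a coefficient of variation of 20.3%. Hist2h2ac stood at 45.1, 38.5 and 43.4 CPM in KO males, 51.5, 34.3 and 55.8 CPM in WT males, 32.2, 38.7 and 43.8 CPM in KO females and 26.1, 35.3 and 43.5 CPM in WT females. The libraries lowest for Hist2h2ac, WT male 2 and WT female 1, were also the lowest of their sex for Hist2h2be, by a smaller margin.

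The same libraries were low for other genes of dividing cells. The sum of 28 S phase and replication genes was lowest of the males in WT male 2 (823 CPM, against 950 to 1110 CPM in the other 5) and lowest of the females in WT female 1 (738 CPM, against 885 to 1119 CPM). The sum of 18 G2 and mitosis genes was likewise lowest in WT male 2 (710 CPM) and WT female 1 (660 CPM), with up to 1079 CPM elsewhere. At the high end the order differed. WT male 3, highest of the males in histone RNA, held 1081 CPM of the S phase list, below KO male 3 (1110 CPM). It held 887 CPM of the G2 and mitosis list, below KO male 1 (1079 CPM). KO female 3, highest of the females in histone RNA, was also highest in the S phase list (1119 CPM). In the G2 and mitosis list WT female 2 was highest of the females (1032 CPM). Markers of intermediate progenitors, summed over 4 genes, were at 192 CPM in WT male 2 and 177 CPM in WT female 1, against 245 to 362 CPM in the other 10 libraries. Radial glia markers, summed over 8 genes, did not single these libraries out to the same extent (1211 and 1121 CPM, in a range of 1121 to 1363 CPM).

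**Figure D2:**
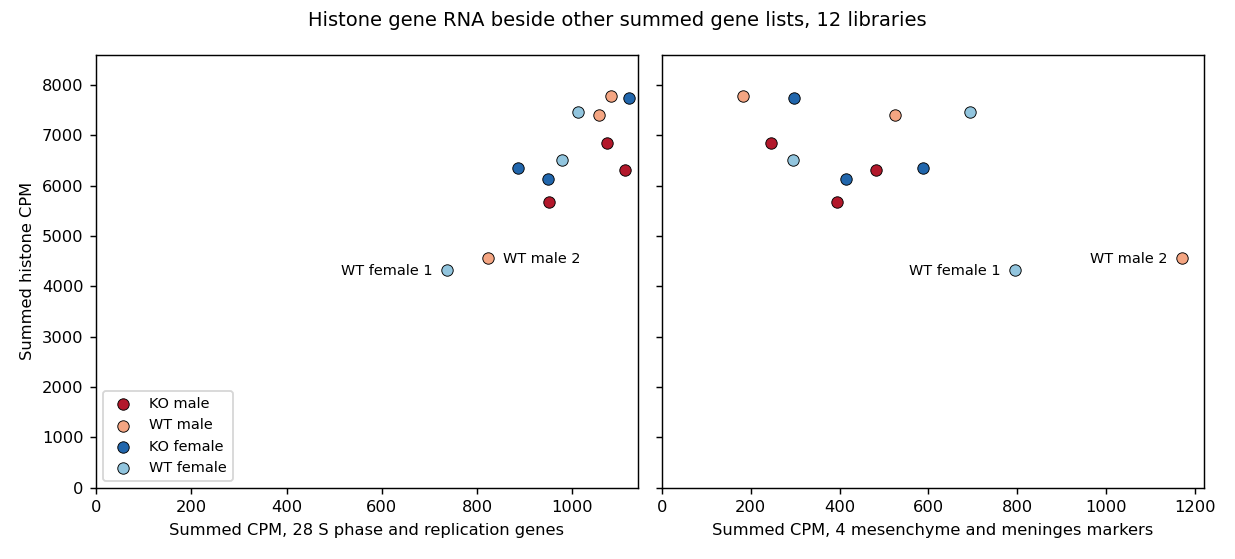
Summed CPM of the 71 histone genes (vertical axis) against the summed CPM of 28 S phase and replication genes (left) and of 4 mesenchyme and meninges markers (right), 1 point per library, coloured by group. WT male 2 and WT female 1 are lowest in histone and S phase RNA and hold 1171 and 796 CPM of the mesenchyme markers, the most of their sex.

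Other lists differed in those libraries too. Replication-independent histones, 11 genes, were lowest of their sex at 1690 CPM in WT male 2 and 1798 CPM in WT female 1, in a range to 2428 CPM. The 4 mesenchyme and meninges markers (Col1a1, Col1a2, Col3a1 and Lum) summed to 1171 CPM in WT male 2 and 796 CPM in WT female 1, the highest of their sex, in a range of 182 to 1171 CPM over all 12. Microglia and endothelium markers, 4 genes each, were highest of all 12 libraries in WT male 2, at 49.8 and 166 CPM, and stood at 39.6 and 148 CPM in WT female 1, in ranges from 28.4 and 102 CPM. The sum of 12 other short or non-polyadenylated RNAs was 45714 CPM in WT male 2 and 51100 CPM in WT female 1, and its lowest value, 43963 CPM, was in WT female 2. The part of tissue makeup and of these RNAs in the histone values was not tested.

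No histone member was called between KO and WT brains of males. A gene was called at a Benjamini-Hochberg adjusted p under 0.05, over all genes tested by the quasi-likelihood method of edgeR. Hist1h2aa did not pass the filter on low counts, which left 70 members tested in each comparison. In males 0 of 70 were called, against 0.466% of the 18672 genes tested. An unadjusted p under 0.05 was found for 2 members, against 11.9% of all genes. DESeq2 called 0 members, against 2.59% of all genes, with 1 member at an unadjusted p under 0.05. The log2 fold changes of KO over WT were above 0 for 8 members, against 48.8% of all genes, and below 0 for 62, with a median of −0.07, against −0.01 over all genes. Apart from Hist1h1t, Hist2h2aa1 and Hist2h3c1, which rest on very few counts or on libraries at or near 0, they ran from −0.21 to 0.23, and the 95% intervals of the other 67 members reached from −0.62 to 0.47.

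The median in males turned with the libraries included. Without WT male 2 the median was −0.29 and 69 of 70 members were below 0. An unadjusted p under 0.05 was found for 48 by edgeR, and the share of all genes at that level was not counted in this fit. Of the members 0 were called, against 0.211% of all genes. Since the members vary together from library to library, these 48 are not separate results. Without WT male 3 it was 0.07, and 59 of 70 members were above 0. By family the male medians were −0.01 for H1, −0.06 for H2A, −0.06 for H2B, −0.08 for H3 and −0.10 for H4. With the Hox level of the libraries as a covariate the median of all members was −0.27 and 68 of 70 were below 0, and the 6 hindbrain and cord markers themselves had a median of −2.79, with 0 of 6 above 0. Erythroid markers, 8 genes, had a median of −0.34 in the same comparison and the 4 mesenchyme and meninges markers −0.62, with 0 called in these 3 lists by edgeR and 1, 6 and 0 at an unadjusted p under 0.05. Their part in the histone values was not tested.

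Single members of the male comparison gave little more. Hist2h2be was the only member other than Hist1h1t with an unadjusted p under 0.05. Its KO male libraries (13.3 to 14.9 CPM) all lay above the WT male libraries (11.3 to 12.4 CPM), and the log2 fold change was 0.23 ± 0.09 (± gives the SE of a fold change), at an adjusted p of 0.392 by edgeR. All KO libraries lay above all WT libraries for 1 member, Hist2h2be, against 8.87% of all genes, and below them for 1, Hist1h1t, against 8.45%. Hist4h4, the lone gene of its cluster, stood at 38.4, 45.3 and 39.1 CPM in KO males against 53.1, 34.7 and 54.0 CPM in WT males, with WT male 2 below all others. Its log2 fold change was −0.21 ± 0.17 and its adjusted p 0.673 by edgeR. Hist2h4 followed with −0.21 ± 0.21 and Hist2h2ac with −0.16 ± 0.18, neither called.

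Females gave the opposite sign, again with no call. In females 0 of 70 members were called, against 0.0214% of the 18710 genes tested. By edgeR 2 had an unadjusted p under 0.05, against 7.48% of all genes. DESeq2 called 0 members, against 0.962% of all genes, with 3 members at an unadjusted p under 0.05. Fold changes were above 0 for 64 members, against 51.6% of all genes, with a median of 0.14, against 0.01 over all genes. Apart from the same 3 members they ran from −0.15 to 0.58, and the 95% intervals of the other 67 reached from −0.70 to 1.11. Without WT female 1 the median was −0.05 and 48 of 70 members were below 0, whereas without WT female 3 it was 0.32 and 69 of 70 were above 0. By family the female medians were 0.18 for H1, 0.17 for H2A, 0.16 for H2B, 0.12 for H3 and 0.09 for H4. With the Hox level as a covariate the median of all members was 0.02 and 38 of 70 were above 0, and the hindbrain and cord markers had a median of 0.83, with 6 of 6 above 0. Erythroid markers had a median of 0.50 here, the 12 short or non-polyadenylated RNAs 0.33 and the mesenchyme and meninges markers −0.44, with 0 called in these 4 lists by edgeR and 0, 0, 2 and 0 at an unadjusted p under 0.05. Their part was not tested.

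The H2B gene Hist1h2bl had the smallest p in females. It stood at 60.7, 76.4 and 61.8 CPM in KO females, against 42.6, 46.6 and 56.9 CPM in WT females. The groups did not overlap, its log2 fold change was 0.45 ± 0.13, and its adjusted p was 0.515 by edgeR. In males Hist1h2bl showed no such order, with 56.5, 43.2 and 49.4 CPM in KO males and 59.7, 35.6 and 63.4 CPM in WT males. The H3 gene Hist1h3h followed with 0.25 ± 0.11, Hist1h3g with 0.44 ± 0.19, the H4 gene Hist1h4i with 0.58 ± 0.27 and the H2B gene Hist1h2br with 0.33 ± 0.17. Hist1h3g stood at 52.7, 59.4 and 57.3 CPM in KO females and 29.4, 52.1 and 43.3 CPM in WT females, also without overlap. Hist1h4i stood at 41.4, 63.8 and 29.8 CPM in KO females and 35.3, 26.0 and 29.0 CPM in WT females, where KO female 2 was far above the rest and the groups overlapped. All KO libraries lay above all WT libraries for 3 members (Hist1h2bl, Hist1h3g and Hist2h2aa1), against 7.57% of all genes, and below them for 0, against 6.25%.

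**Figure D3:**
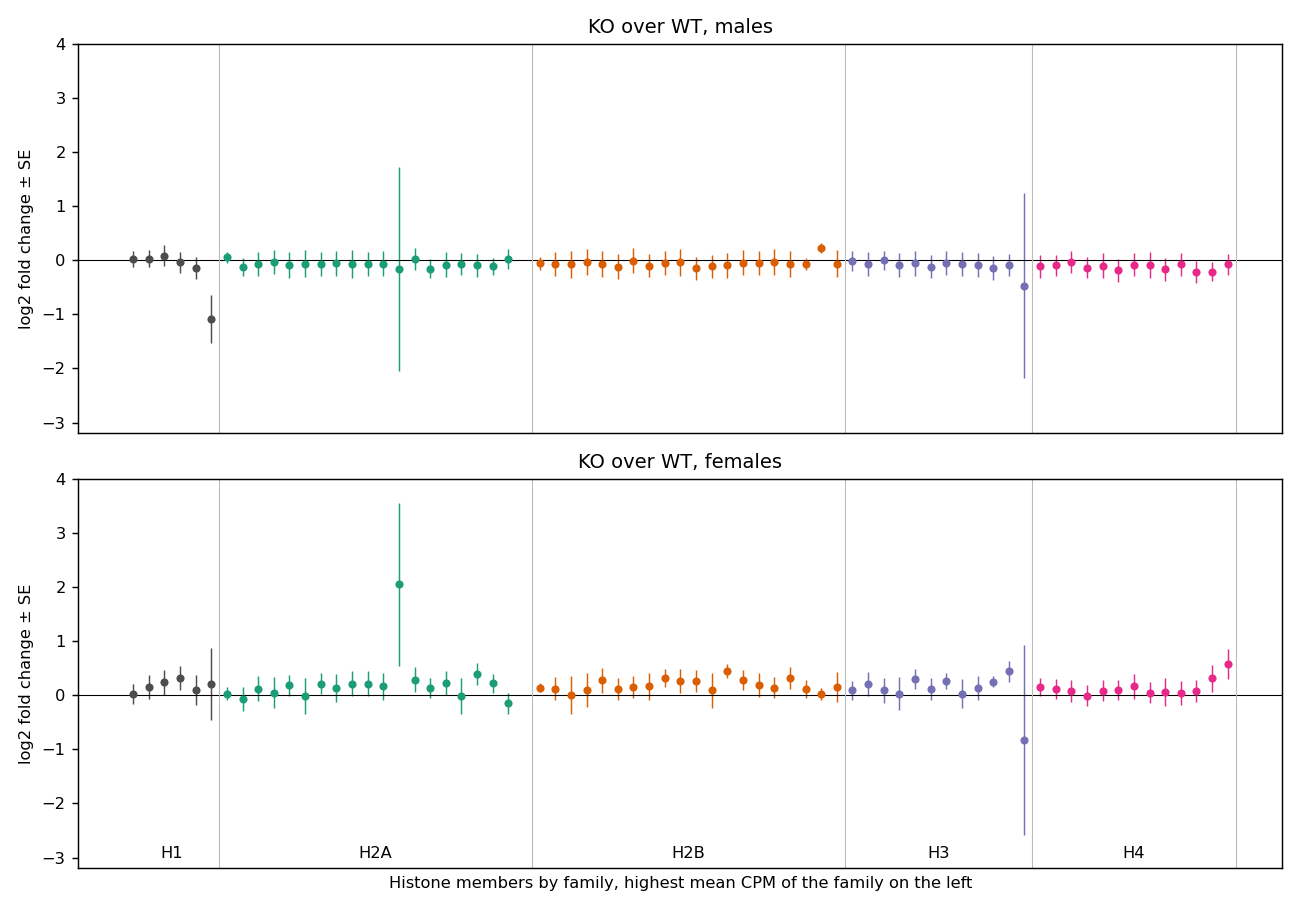
Log2 fold change of KO over WT (vertical axis) of the 70 tested histone members in males (top) and females (bottom), grouped by family with the highest mean CPM on the left. Points are estimates and bars 1 SE. Most members lie just below 0 in males (62 of 70) and just above 0 in females (64 of 70). The widest bars belong to Hist2h2aa1 and Hist2h3c1.

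Over both sexes, with sex as a term, 0 of 70 members were called, against 1.9% of the 19768 genes tested, and by edgeR 0 had an unadjusted p under 0.05, against 13.7% of all genes. DESeq2 called 0, against 4.08% of all genes, with 0 members at an unadjusted p under 0.05. The median log2 fold change was 0.04 and 49 members were above 0, against 50.6% of all genes. Without WT male 2 and WT female 1 together, a choice made after seeing the data, the median was −0.16 and 66 of 70 members were below 0. In that fit 10 members had an unadjusted p under 0.05 by edgeR, with the share of all genes at that level not counted. Called were 0 members, against 0.794% of all genes. The 95% intervals of 67 members all lay within a log2 fold change of 1 in either direction, from −0.49 to 0.65. Hist2h2be had the smallest p, with 0.13 ± 0.07 and an adjusted p of 0.469 by edgeR. It was followed by Hist1h4i (0.25 ± 0.20), Hist1h2bl (0.18 ± 0.16), Hist1h3g (0.17 ± 0.17) and Hist1h1d (0.16 ± 0.16).

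The difference between the sexes in the KO effect was tested by an interaction term. Here 0 of 70 members were called, against 0% of the 19768 genes tested, and by edgeR 0 had an unadjusted p under 0.05, against 4.45% of all genes. DESeq2 called 0 members, against 0.0253% of all genes, with 0 members at an unadjusted p under 0.05. The interaction estimate was above 0 for 66 members, against 54.8% of all genes, with a median of 0.23 and a median standard error of 0.34. Hist1h2bl had the smallest p here, with 0.54 ± 0.28 and an adjusted p of 0.91 by edgeR.

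Genes that make and handle histone messenger RNA were examined beside the members. Genes of histone gene transcription numbered 8, listed under 9 identifiers because Coil appears under 2. Over both sexes 1 of the 9 was called, against 1.9% of the 19768 genes tested. Npat, the coactivator of histone locus bodies, stood at 37.4, 35.4 and 36.9 CPM in KO males against 31.1, 32.5 and 32.3 CPM in WT males. It stood at 36.0, 35.4 and 36.1 CPM in KO females against 31.4, 32.4 and 29.5 CPM in WT females. All 6 KO libraries thus lay above all 6 WT libraries, and how many of all genes do so was not counted. Npat rose by a log2 fold change of 0.20 ± 0.04 over both sexes (adjusted p = 0.0376 by edgeR), and within males and within females it did not pass (adjusted p = 0.309 and 0.632). The estimate stayed between 0.18 and 0.22 in 21 alternative settings and passed the threshold in 6 of them, with an adjusted p of up to 0.129.

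None of the 15 genes of histone messenger RNA processing and decay passed the test between KO and WT, whether by sex or with sexes combined. With edgeR, an unadjusted p under 0.05 was found for 2 of them in males, for 2 in females and for 5 with the sexes combined, against 11.9%, 7.48% and 13.7% of all genes. Slbp, which encodes the stem loop binding protein, stood at 30.8, 26.9 and 29.1 CPM in KO males against 30.1, 25.2 and 27.3 CPM in WT males. It stood at 33.7, 35.0 and 36.3 CPM in KO females against 26.9, 30.9 and 32.4 CPM in WT females. Those female groups did not overlap, but Slbp was not called (log2 fold change 0.22 ± 0.09, adjusted p = 0.651 by edgeR). Over both sexes the calls were 0 of 11 replication-independent histones, 0 of 13 histone chaperones, 0 of 28 S phase and replication genes and 0 of 18 G2 and mitosis genes. Their median log2 fold changes over both sexes were 0.12, 0.13, 0.10 and 0.16, and at an unadjusted p under 0.05 edgeR had 2, 1, 1 and 0 genes of these lists. Among the most abundant of these, H3f3a and H3f3b, both genes for the replacement histone H3.3, gave 0.17 ± 0.09 and 0.16 ± 0.06, and Mcm7 and Pcna, a helicase subunit and the clamp of replication, gave 0.10 ± 0.10 and 0.02 ± 0.12. Top2a and Mki67, marks of dividing cells, gave 0.13 ± 0.12 and 0.06 ± 0.17. In males 21 of 28 S phase and 18 of 18 G2 and mitosis genes were above 0, against 8 of 70 histone members and 48.8% of all genes. In females 27 of 28 and 16 of 18 were above 0, against 64 of 70 histone members and 51.6% of all genes. The 12 short or non-polyadenylated RNAs had 0 calls over both sexes by edgeR, 2 at an unadjusted p under 0.05 and a median of 0.17.

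Between females and males, with all 12 libraries, a smaller share of the histone members than of all genes was called. Calls went in both directions, and the order of the shares changed with the libraries included, as given below. With genotype as a term, edgeR called 11 of 70 members between females and males, or 15.7%, against 23.7% of all 19768 genes tested, and 15 members had an unadjusted p under 0.05, against 35.5%. In females 6 members were higher, against 12.9% of all genes (Hist1h2ac, Hist1h2ae, Hist1h2aj, Hist1h2an, Hist1h2ap and Hist1h3i) and 5 were lower, against 10.9% (Hist1h2ba, Hist1h3g, Hist3h2a, Hist3h2bb-ps and the lincRNA row of Hist2h2bb). The median log2 fold change over the 70 members was 0.03, and 39 were above 0, against 49.9% of all genes. DESeq2 called 13 members, against 27.1% of all genes. Female and male libraries stand in separate deposited tables, and kit version and sequencer are not given by library, so sex and preparation cannot be told apart.

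**Figure D4:**
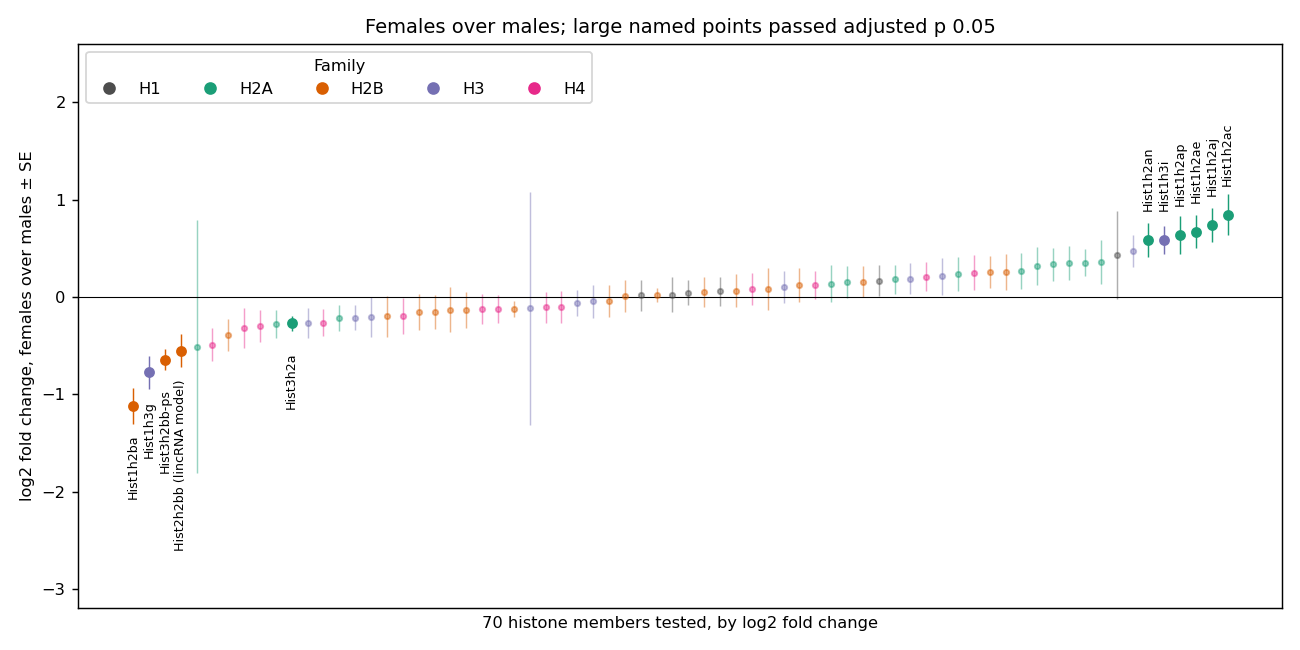
Log2 fold change of females over males (vertical axis) of the 70 tested histone members, ordered by size, with bars of 1 SE and colour by protein family. Large named points are the 11 members with an adjusted p under 0.05, and 5 of the 6 higher in females are H2A genes. The values of all 70 run from −1.12 to 0.85.

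The H2A genes carried most of the higher calls. H2A made up 18.9% to 19.8% of histone CPM in the 6 females and 15.8% to 17.2% in the 6 males, without overlap. Of the 19 H2A members tested, 15 were above 0, with a median of 0.32, 5 called higher and 1 lower, where over all genes 49.9% were above 0, 12.9% called higher and 10.9% lower. Hist1h2ac had the largest estimate, with 41.6, 35.4 and 60.1 CPM in KO females and 26.1, 52.0 and 60.1 CPM in WT females, against 29.8, 21.9 and 23.8 CPM in KO males and 30.6, 18.8 and 29.4 CPM in WT males. Only WT female 1 fell within the male range, and the log2 fold change was 0.85 ± 0.21 (adjusted p = 0.0138 by edgeR). Hist1h2ae had a median of 54.1 CPM in females (31.5 to 63.8) and 33.6 CPM in males (23.1 to 39.4), with 0.67 ± 0.17 and an adjusted p of 0.0153 by edgeR. Hist1h2aj (0.74 ± 0.18), Hist1h2ap (0.64 ± 0.19) and Hist1h2an (0.58 ± 0.17) were also higher, and they share 92.4%, 92.6% and 84.6% of their 75-base windows with other genes; the division of reads among them is uncertain. Hist1h2ac shares 11.1% and Hist1h2ae 34.4%, but their models are longer. In windows these are 267 of 2408 and 217 of 630, against 270 of 319 for Hist1h2an. The division of reads is therefore not certain for Hist1h2ac and Hist1h2ae either.

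The H2B partners of these H2A genes were not called. Hist1h2bg, which starts 176 bases from Hist1h2ae across the promoter printed above, had −0.04 (adjusted p = 0.896 by edgeR). Hist1h2bc beside Hist1h2ac had 0.07, Hist1h2br beside Hist1h2ap 0.05 and Hist1h2bp beside Hist1h2an −0.15. The difference between partners was itself not tested. Over all 20 H2B members 9 were above 0, with a median of −0.08.

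Among the members lower in females, 3 had all female libraries below all male libraries, against 6.13% of all genes, while 0 had them all above, against 4.65%. Hist1h2ba, a testis H2B gene, stood at 1.20 to 2.09 CPM in females and 2.33 to 4.79 CPM in males, with a log2 fold change of −1.12 ± 0.19 (adjusted p = 0.000917 by edgeR). Of its windows, 33.2% are shared with another H2B gene, Hist1h2bj. Hist3h2bb-ps, an H2B pseudogene, had a median of 17.9 CPM in females (13.8 to 21.4) and 28.1 CPM in males (24.5 to 34.3), with −0.65 ± 0.11 (adjusted p = 0.00092 by edgeR). Hist1h3g stood at 29.4 to 59.4 CPM in females and 59.6 to 102 CPM in males, with −0.78 ± 0.17 (adjusted p = 0.00684 by edgeR). Hist1h3g shares 46.1% of its windows with other genes and Hist3h2bb-ps 19.2%. The H3 gene Hist1h3i went the other way, at 88.6 to 150 CPM in females and 58.6 to 101 CPM in males, with 0.59 ± 0.14. Both encode replication-linked H3. Hist1h3i shares 78.3% of its windows with other genes and is as uncertain as the H2A copies. The H3 family as a whole had a median of −0.05, with 5 of 12 members above 0.

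Of the 3 Hist3 members 2 were lower in females and 1 was not called. Hist3h2a stood at 131, 128 and 146 CPM in KO females and 118, 120 and 158 CPM in WT females, against 162, 163 and 172 CPM in KO males and 164, 135 and 179 CPM in WT males. Its log2 fold change was −0.27 ± 0.08 (adjusted p = 0.0273 by edgeR), and it shares 30.6% of its windows with the gene Trim17. Hist3h2ba, the H2B gene of that cluster, had 110 to 132 CPM in females and 112 to 159 CPM in males and was not called. The lincRNA row of Hist2h2bb had 30.7 to 61.7 CPM in females and 51.8 to 91.9 CPM in males (−0.55 ± 0.17, adjusted p = 0.0349 by edgeR).

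The count of sex calls depended on the libraries included. Of 70 members it was 7 without WT female 2, against 18.5% of all genes, and 7 without KO male 3, against 20%. It was 13 without WT female 1, against 18.2%, and 18 without WT female 1 and WT male 2 together, against 16.8%. In that last fit the share of members called was larger than that of all genes. Of the 11 calls, Hist1h2ac, Hist1h2ae, Hist1h2aj, Hist1h2ba, Hist1h3g, Hist1h3i and Hist3h2bb-ps passed in all 21 alternatives, and Hist1h2an, Hist1h2ap, Hist3h2a and the lincRNA row of Hist2h2bb in 13 or 14.

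Other short or non-polyadenylated RNAs had estimates in both directions, but every call among them was higher in females. Of 12 tested, 7 were above 0, 6 were called higher in females, against 12.9% of all genes, and 0 lower, against 10.9%, with a median log2 fold change of 0.48. Of the 5 below 0, Rnu12 (−0.94 ± 0.35), Rny3 (−1.15 ± 0.48) and Rn7s1 (−0.42 ± 0.17) had an unadjusted p under 0.05 by edgeR and were not called. Rn7sk, the small RNA that holds the elongation factor P-TEFb, stood at 10129 to 18090 CPM in females and 5359 to 7362 CPM in males (1.15 ± 0.13, adjusted p = 5.46e-05 by edgeR). The nuclear long noncoding RNA Neat1 gave 1.58 ± 0.28 and the telomerase RNA Terc 0.65 ± 0.13, and Malat1 was higher as well. In the other lists few genes were called, and over all genes 12.9% were called higher and 10.9% lower. Of 15 processing and decay genes 2 were higher and 2 lower, and of 9 histone gene transcription rows 1 was higher. Of 11 replication-independent histones 2 were higher, of 13 chaperones 1 was higher and 2 lower, and of 18 G2 and mitosis genes 1 was lower. Slbp was higher in females (0.21 ± 0.07, adjusted p = 0.0328 by edgeR), as were E2f1, an S phase transcription factor (0.49 ± 0.10), and H3f3b (0.36 ± 0.06). Upf1, a decay factor, was higher (0.22 ± 0.06), and Cpsf2 (−0.12 ± 0.04) and Cpsf3 (−0.21 ± 0.04), subunits of the complex that cuts histone messenger RNA, were lower. The linker histone gene H1fx (0.36 ± 0.09) and the chaperone Nasp (0.25 ± 0.08) were higher, and the chaperones Npm1 (−0.29 ± 0.06) and Ssrp1 (−0.20 ± 0.06) and the mitotic kinase Cdk1 (−0.35 ± 0.12) were lower. In the 21 alternatives Slbp passed in 10, Nasp in 11, Cdk1 in 13, Cpsf2 in 14, Ssrp1 in 15 and Upf1 in 17, and the other called list genes given here passed in all 21. Of the 28 S phase and replication genes 0 were called between the sexes, with 5 at an unadjusted p under 0.05 by edgeR. The part of these shifts in the histone values was not tested.

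Finally, a pair of members was listed at 0 in single libraries. Hist2h2aa1, an H2A gene, was at 0 CPM in KO male 2 and WT female 2, at 5.8 CPM in WT male 2 and at 13.4 CPM in WT female 3, against 44.5 to 104 CPM in the other 8 libraries. Its copy Hist2h2aa2 shares 100% of its 75-base windows with Hist2h2aa1, and it stood at 97.8 to 194 CPM in all 12. Hist2h3c1, an H3 gene, was at 0 CPM in KO male 1 and KO female 3 and at 137 CPM in WT female 2, while Hist2h3c2 (55.7 to 127 CPM) and Hist2h3b (73.0 to 134 CPM) were never near 0. The 0 values fell in libraries of both genotypes. All windows of Hist2h3c1, and 88.9% of those of Hist2h2aa1, are also found in the overlapping model Gm20634, which was looked at after these values were seen. Gm20634 stood at 0 CPM in KO male 2 and WT female 2, where Hist2h2aa1 was at 0 and Hist2h3c1 at 89.5 and 137 CPM. It stood at 162 CPM in KO male 1 and 193 CPM in KO female 3, where Hist2h3c1 was at 0, and at 150 CPM in WT male 2 and 278 CPM in WT female 3, where both were low. In the other 6 libraries it was at 81.7 to 125 CPM. The fold changes of these 2 genes carry standard errors of 1.20 to 1.88 in the comparisons of genotype by sex and over both sexes. Without them the summed histone level was 4241 to 7631 CPM, in place of 4330 to 7787 CPM.

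**Figure D5:**
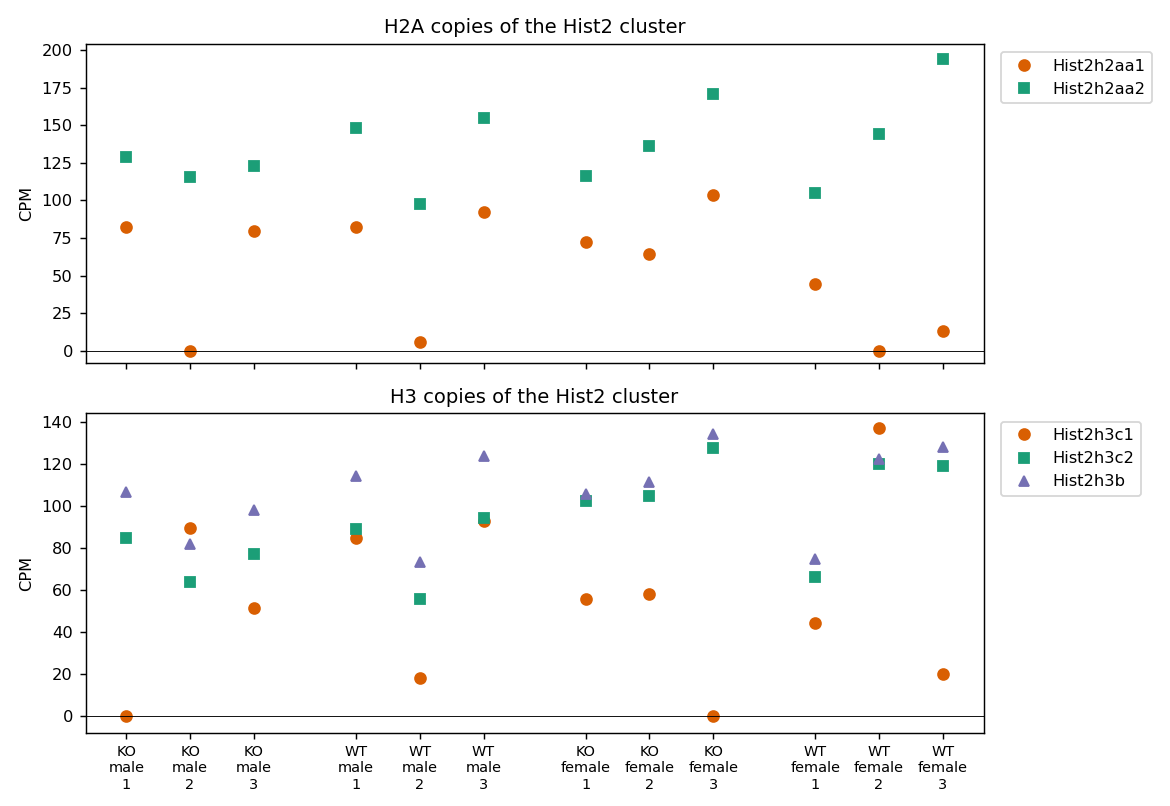
CPM (vertical axis) of Hist2h2aa1 and its copy Hist2h2aa2 (top) and of Hist2h3c1 with Hist2h3c2 and Hist2h3b (bottom) in each of the 12 libraries. Hist2h2aa1 is at 0 in KO male 2 and WT female 2 and Hist2h3c1 in KO male 1 and KO female 3, while their copies stay above 55 CPM in every library.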

How the data were processed

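The values deposited by the authors are read counts per gene without normalization, 1 table for males and 1 for females. To make these counts the authors cut longer reads to 75 bases, removed adapters with cutadapt 2.6, aligned them to mm10 (GRCm38) with HISAT2 2.1.0 and quantified Ensembl transcripts with StringTie 2.0.6, whose script derives counts from coverage and rounds them. How reads of near-identical copies were divided, the strand setting and the filters are not given in the sources used here.

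All genes were fitted in R 4.3.3 with edgeR 4.0.16 (TMM, filterByExpr with 10 counts and 15 in total, robust quasi-likelihood F test), and Benjamini-Hochberg adjustment covered all genes tested, at 0.05. Standard errors were derived from the test, as the size of the log2 fold change divided by the square root of its F statistic. The intervals of the fold changes apply a normal cutoff to these errors. That cutoff takes no account of the few libraries per group, so the intervals are narrower than the F test itself would give. Totals ranged from 40398665 to 59304196 counts. Whether PCR duplicates were removed is not given in the sources used here. The fit was tested on simulated counts.

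Named members are those called in any comparison, the 3 most abundant of each family, the 5 of smallest p in each KO comparison, the Hist3, Hist4 and testis members, up to 4 called or the 2 most abundant genes of each list described, and Whsc1, Slbp and Hoxa5. Other genes were named after their values were seen. The members and lists were chosen with earlier results of these data known. Alternatives were RLE, DESeq2 1.42.0, the likelihood ratio test, no filter, a filter of 1 CPM in 3 libraries, totals without histone, small and mitochondrial RNAs, a shared spread, the replicate block, the Hox level as covariate and leaving out each library.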

Additional observations from a re-analysis of the deposited data

How the results depend on the processing

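The 0 calls between KO and WT in males, in females, over both sexes and in the interaction held in all alternatives run (15, 15, 21 and 21). The count between females and males was 11 of 70 in the main fit, against 23.7% of all genes. It was 7 to 13 when 1 library was left out, where 17.5% to 27.8% of all genes were called. It was 18, against 16.8%, without WT female 1 and WT male 2 together, an alternative chosen after seeing the data. Without those 2 libraries the estimates over both sexes turned to −0.0560 for Hist1h1d and −0.0308 for Hist1h3g, and with 1 library left out they reached 0.248 and 0.274. Leaving out 1 library moved the median log2 fold change of the members between −0.29 and 0.07 in males, −0.05 and 0.32 in females, −0.06 and 0.12 over both sexes and −0.04 and 0.15 between females and males. With the Hox level as covariate it was −0.27 in males and 0.02 in females. Nothing in the labels says that KO and WT libraries of the same replicate number belong together. Same-numbered libraries correlated at −0.04 to 0.18 in males and −0.05 to 0.20 in females. Libraries of different number correlated at −0.13 to 0.12 in males and −0.22 to 0.21 in females. With 3 libraries per group these values cannot decide whether the numbers mark pairs. With the replicate block 0 members were called between KO and WT, and 12 between females and males. Single genes kept their side of the threshold in 830 of 935 alternative fits, lost it in 103 and turned in 2. The causes were not tested. Hist1h1t and Hist1h2aa had very few counts. Hist2h2aa1 and Hist2h3c1 share most or all of their windows with other genes, and the part of this sharing in their values was not tested.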
